A study of Mus musculus with 4 samples.

Results

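The genes described here carry glucose and amino acids into the cell, break glucose down to pyruvate and lactate, and sense nutrients through the kinase mTOR. They are 34 genes chosen by name: 2 glucose transporters, 14 glycolytic genes, 5 genes of pyruvate and lactate handling, the transcription factor genes Hif1a and Myc, 6 genes of mTOR complexes, their activator and targets, the brake genes Tsc1 and Tsc2, and 3 genes of amino acid uptake. A differentially accessible region was taken for a gene when its midpoint lay inside the gene, within 1 kb of its start or end, or outside all genes and nearest to it within 100 kb, on the protein-coding annotation of build GRCm38. By this rule 321 of 92372 deposited rows belonged to the 34 genes. Joined where rows overlapped by at least 1 bp, they made 174 of 52537 distinct regions. They lay at 33 of the 34 genes, against 67.0% of all 21896 protein-coding genes with a listed region, and Pfkl, the liver-type phosphofructokinase gene, had none. The rule uses gene names and positions and no measured value, but the genes were chosen with earlier results of these data known.

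Naive T helper cells burn fuel mainly in mitochondria. On activation they take up more glucose and amino acids, and aerobic glycolysis rises, with lactate exported while respiration continues. The mTOR complexes lie at the centre of this switch. mTORC1, built around Raptor, responds to amino acids and to the GTPase Rheb, is held back by the TSC1 and TSC2 complex, and favours translation as well as the action of HIF-1α and MYC, which in turn drive glycolytic genes. Effector T helper cells, Th2 cells among them, are known to lean on this programme, and regulatory T cells are known to use it less and to need mTOR in a tuned way.

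Accessibility was measured by ATAC-seq, in which a transposase cuts open chromatin. Every population came from mice given house dust mite extract (HDM) through the nose, first to sensitize and then to challenge them, which gives an asthma-like lung inflammation, and the titles place all cells at day 15. From CD3+ CD4+ cells of lung with airways, Th2 cells were sorted as CD44+ and positive for both ST2 and CD30L. Regulatory T cells, called Treg below, were sorted as CD25hi and CD30L-. Other effector cells, the memory cells that are not Th2, were sorted as CD44+ and CD30L+ but ST2-. Naive cells (CD44lo and CD62Lhi) came from the mLN by the protocol, though their label names lung and airways. If the protocol is right, population and tissue cannot be told apart in any comparison with them. A file label of the other effector and naive cells names day 10 in place of 15. The sources used here give no strain, sex or age. The protocol counts 3 biological replicates of 1000 cells for each population. The deposited tables, 1 for each of the 6 pairs of populations, give a position and a fold for every differential region, and no value per library. No result below therefore has a replicate error or a test of its own, depth is unknown, and a region absent from a table was not called different, which does not show that it was equal. Every fold below is the log2 fold of the authors' deposited table, written as the higher minus the lower population.

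Lineage genes were used to read the sign of the folds. Of the regions at 4 naive marker genes, 0 favoured Th2 and 36 favoured naive cells, at 6 Th2 marker genes 27 favoured Th2 and 0 favoured naive cells, and at 4 Treg marker genes 17 favoured Treg and 0 favoured Th2 cells. Their direction is therefore no independent evidence. Not every comparison of these genes followed the labels. Between Treg and Th2 cells the Th2 marker genes had 1 region toward Treg and 2 toward Th2 cells, and 15 of their regions were higher in Treg than in naive cells. In the comparison of Th2 with naive cells, which holds no Treg cells, the Treg marker genes had 4 regions toward Th2 and 4 toward naive cells. Gata3, the Th2 lineage factor gene, was not listed between Th2 and naive cells, and its only region among Th2, Treg and naive cells was higher in Treg than in Th2 cells. Between Th2 and naive cells, 3 Th1 genes had 2 regions toward Th2 and 0 toward naive cells, 5 B cell genes 0 and 5, 5 CD8 and natural killer genes 1 and 7, 5 myeloid genes 2 and 1, and 4 epithelial genes 0 and 0. Over other effector cells, epithelial genes had 6 regions in Th2, 4 in Treg and 5 in naive cells, B cell genes 4, 3 and 18, and myeloid genes 15, 6 and 11. Cxcr3, Lyz2 and Krt8 had no region. The part of other cell types in the results below was not tested. All 70640 rows of the 3 tables with other effector cells were lower in other effector cells. The tables give no depth or quality of those libraries, so a property of the population and one of its libraries cannot be told apart in any comparison with them. Of the member rows, 248 came from those 3 tables and 73 from the other 3, and each result below names its comparison, so that those without other effector cells can be read alone.

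Sequences are shown for the start sites on which the results turn: Hk2, Pfkfb3 and Hif1a, at genes with many regions, Ldha and Ldhb, whose start sites were listed in different populations, and Mtor itself. Each is the 300 bases from 250 before to 50 after an annotated start, 5′ to 3′ on the gene's strand, from RefSeq on GRCm38.p6, and each was covered whole by a listed region. Capitals mark the letters ACGTG (the core bound by HIF), CACGTG (the E-box bound by MYC, which holds the HIF core), TGANTCA (AP-1) and TGTGGT (Runx), searched on both strands.
Hk2 (chr6:82774405-82774704, minus strand): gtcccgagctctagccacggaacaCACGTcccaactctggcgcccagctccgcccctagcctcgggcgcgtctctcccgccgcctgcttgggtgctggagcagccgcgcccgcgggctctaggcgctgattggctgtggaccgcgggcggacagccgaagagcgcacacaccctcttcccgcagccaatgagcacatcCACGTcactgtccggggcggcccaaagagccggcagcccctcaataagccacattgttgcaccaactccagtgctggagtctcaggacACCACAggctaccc
Pfkfb3 (chr2:11553880-11554179, minus strand): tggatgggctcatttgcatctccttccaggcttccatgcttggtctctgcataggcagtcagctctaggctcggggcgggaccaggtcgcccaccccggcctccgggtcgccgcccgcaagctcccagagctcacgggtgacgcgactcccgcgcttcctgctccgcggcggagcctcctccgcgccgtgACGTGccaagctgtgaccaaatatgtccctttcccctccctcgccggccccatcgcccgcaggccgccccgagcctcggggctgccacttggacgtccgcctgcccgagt
Ldha (chr7:46845554-46845853, plus strand): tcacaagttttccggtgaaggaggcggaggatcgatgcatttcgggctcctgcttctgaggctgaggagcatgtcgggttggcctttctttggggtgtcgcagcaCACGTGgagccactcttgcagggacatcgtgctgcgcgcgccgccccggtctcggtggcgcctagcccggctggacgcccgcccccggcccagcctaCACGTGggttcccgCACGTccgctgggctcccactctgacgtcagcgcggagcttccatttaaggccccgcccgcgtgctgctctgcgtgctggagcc
Ldhb (chr6:142507908-142508207, minus strand): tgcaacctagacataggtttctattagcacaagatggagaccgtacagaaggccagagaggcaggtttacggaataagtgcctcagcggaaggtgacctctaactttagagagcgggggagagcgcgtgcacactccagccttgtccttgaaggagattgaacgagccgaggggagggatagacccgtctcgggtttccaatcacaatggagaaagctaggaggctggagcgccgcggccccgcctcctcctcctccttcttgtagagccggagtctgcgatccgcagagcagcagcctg
Hif1a (chr12:73907617-73907916, plus strand): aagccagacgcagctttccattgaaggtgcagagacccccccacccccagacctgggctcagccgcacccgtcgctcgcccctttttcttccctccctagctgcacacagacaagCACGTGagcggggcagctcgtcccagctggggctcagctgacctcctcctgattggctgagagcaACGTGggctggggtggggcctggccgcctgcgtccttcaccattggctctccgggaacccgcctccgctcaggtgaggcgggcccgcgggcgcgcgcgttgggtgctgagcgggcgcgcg
Mtor (chr4:148448332-148448631, plus strand): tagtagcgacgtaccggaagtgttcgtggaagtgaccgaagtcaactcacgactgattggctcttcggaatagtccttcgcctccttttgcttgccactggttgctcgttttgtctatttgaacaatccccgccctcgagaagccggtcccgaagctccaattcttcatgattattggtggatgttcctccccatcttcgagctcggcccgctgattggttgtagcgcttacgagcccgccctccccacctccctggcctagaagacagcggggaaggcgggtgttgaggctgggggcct
The Ldha window held CACGTG at 145 and 48 bases before the start and a further ACGTG at 34 bases. Hif1a held CACGTG at 135 and ACGTG at 70 bases before its start. Hk2 held ACGTG at 226 and 52 bases before its start and TGTGGT at 36 bases after it, and Pfkfb3 held ACGTG at 60 bases before its outer start. The Ldhb and Mtor windows held none of the 4 motifs. Start sequences were given for 29 of the 34 genes, in 41 windows, and ACGTG lay in 20 of the 41 (48.8%), against 20.9% of 21262 windows of all protein-coding genes. Windows of 1 gene can overlap and hold the same letters, so they are not separate units. Counted by gene, 17 of the 29 had a window with ACGTG, and the share of all genes is not given here. CACGTG lay in 6 of the 41 (14.6%), against 7.84% of all windows, TGTGGT in 6 (14.6%), against 15.0%, and TGANTCA in 1 (2.44%), against 6.99%. Of the 34 member windows that overlapped a listed region, 19 held ACGTG (55.9%), against 27.1% of all 10033 such windows, and 5 held CACGTG (14.7%), against 10.7%. A match is only a match of letters.

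Across all 34 genes, the shares of their regions listed in each direction were set beside those of all regions. Th2 cells were higher than naive cells at 24 of the 174 regions, 13.8% of them, against 9.67% of all 52537 regions, and lower at 14, or 8.05%, against 9.21%. Treg cells were higher than naive cells at 12 (6.90%, against 6.64%) and lower at 5 (2.87%, against 5.76%). Treg cells were higher than Th2 cells at 8 (4.60%, against 3.34%) and lower at 10 (5.75%, against 6.72%). Over other effector cells, Th2 cells were higher at 100 (57.5%, against 53.2%), Treg cells at 92 (52.9%, against 46.7%) and naive cells at 54 (31.0%, against 33.7%). These shares lay between 0 and 6 percentage points from the background. Where both shares are small, a gap of few points can still be large in proportion, as for naive over Treg cells (2.87%, against 5.76%). Among only the 16553 regions of the 3 tables without other effector cells, 56 of which are members, Th2 cells were higher than naive cells at 42.9% of members, against 30.7% of all, and lower at 25.0%, against 29.2%. Treg cells were higher than naive cells at 21.4% of the same members, against 21.1% of all, and lower at 8.93%, against 18.3%. Several regions can belong to 1 gene and are no replicates, so no departure is called.

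**Figure D1:**
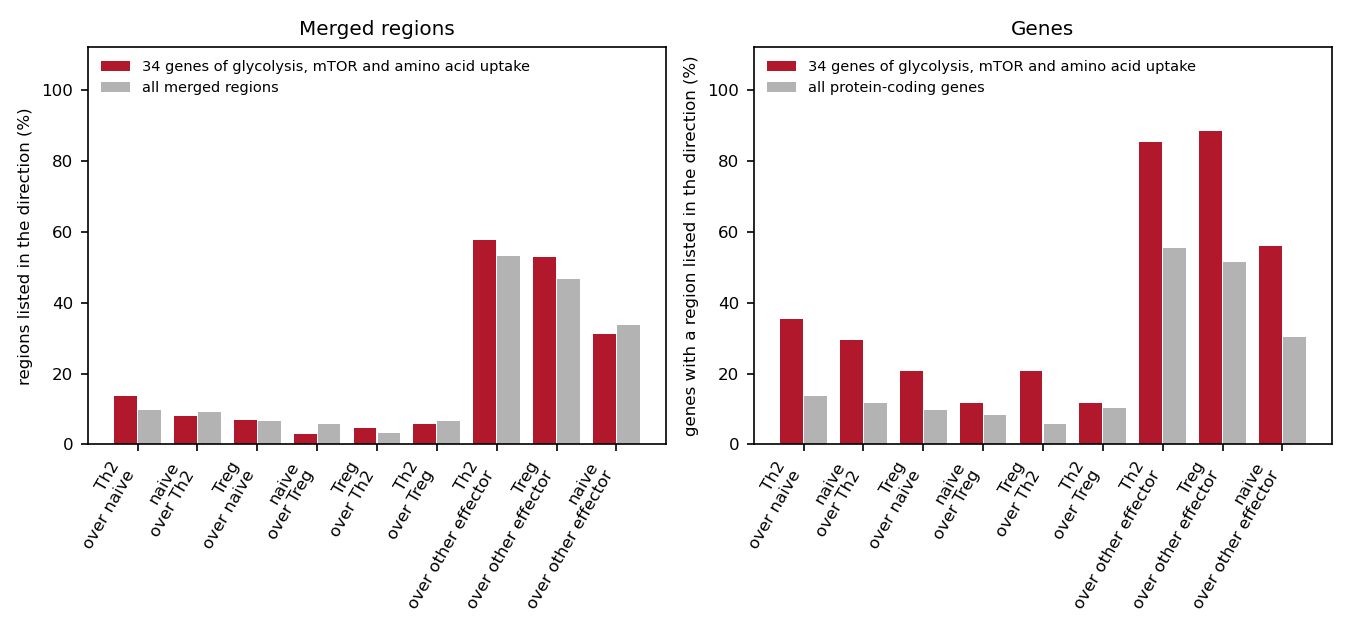
Share of distinct regions (left, %) and of genes (right, %) listed in each direction, for the 34 genes (red, left bar) and for all regions or all protein-coding genes (grey, right bar). Region shares lay 0 to 6 percentage points apart, as with 13.8% against 9.67% for Th2 over naive cells, whereas gene shares of the 34 genes were above the background in all 9 directions.

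Counted by gene, 12 of the 34 genes had a region higher in Th2 than in naive cells, 35.3% against 13.7% of all protein-coding genes, and 10 had a region lower in Th2 cells, 29.4% against 11.8%. Against naive cells, 7 genes had a region higher in Treg cells (20.6%, against 9.70%) and 4 a region lower (11.8%, against 8.45%). Between Treg and Th2 cells, 7 genes had a region higher in Treg cells (20.6%, against 5.71%) and 4 a region lower (11.8%, against 10.4%). Set against other effector cells, the counts were 29 genes for Th2 cells (85.3%, against 55.4%), 30 for Treg cells (88.2%, against 51.5%) and 19 for naive cells (55.9%, against 30.3%). Gene shares were above the background in every listed direction, least for Treg below Th2 cells (11.8%, against 10.4%) among the directions without other effector cells. With regions inside a gene or within 1 kb only, 3 of these counts moved by more than 1.5 times. They were 4 genes in place of 7 for Treg over Th2, 6 in place of 10 for naive over Th2 and 2 in place of 4 for naive over Treg cells. The shares of all genes under that rule are not given here. The 33 genes with a region had a median of 4 regions each, against 2 over all genes with a region, and the 34 genes a median length of 27563 bp, against 17149 bp over all protein-coding genes.

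The median fold of the member regions was 6.33 for Th2 over naive cells, against 5.59 over all rows of that direction, and 5.23 for naive over Th2 cells, against 5.28. It was 5.42 for Treg over naive cells, against 5.72, and 5.46 for naive over Treg cells, against 5.32. Between Treg and Th2 cells it was 5.74 toward Treg, against 5.57, and 5.95 toward Th2 cells, against 5.50. Over other effector cells it was 5.67 in Th2 cells (5.40 over all rows), 5.76 in Treg cells (5.38) and 5.23 in naive cells (5.41). The smallest fold in any table was 3.41, so that small changes cannot appear in these lists.

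**Figure D2:**
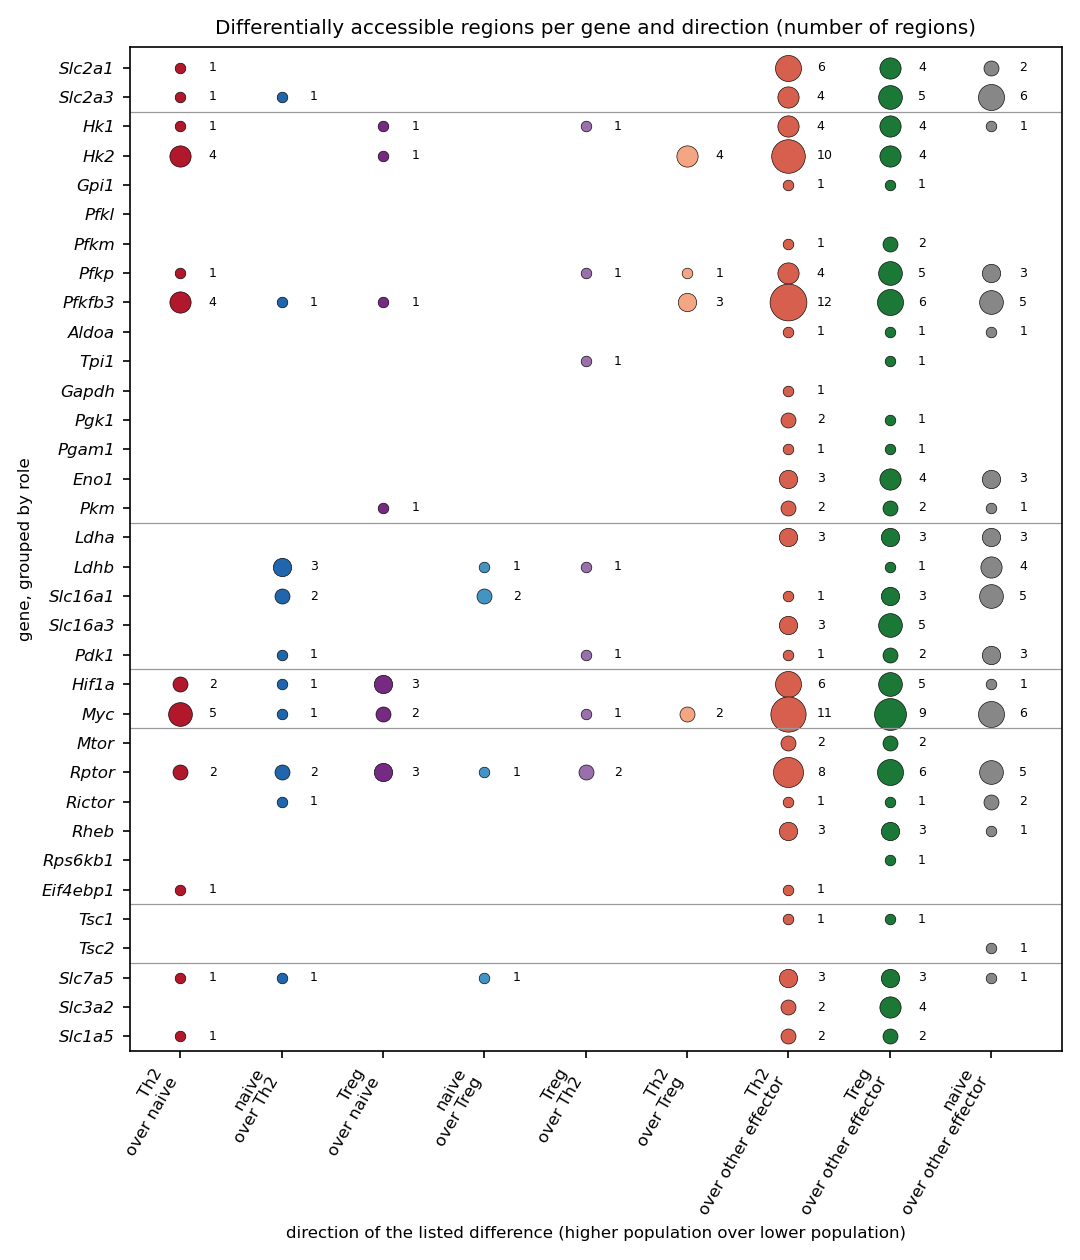
Number of distinct listed regions of each of the 34 genes (rows, in groups by role parted by grey lines) in each direction (columns, higher over lower population), with area and figure giving the number. Pfkfb3, Myc and Hk2 had 12, 11 and 10 regions higher in Th2 cells than in other effector cells, and Pfkl had none in any direction.

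The size of a fold needs care. At 3189 of the 3896 positions listed as higher in Th2 cells than in both naive and other effector cells (81.9%), the fold over naive cells exceeded the fold over other effector cells by 0.17, within 0.01, and so it did at 20 of the 23 such positions of the 34 genes. For Treg cells the same difference held at 2411 of 2761 positions (87.3%), and at 10 of 11 of these genes. Folds over Treg and over other effector cells were equal, within 0.01, at 2659 of 3541 Th2 positions (75.1%) and 1971 of 3025 naive positions (65.2%). Folds over Th2 cells exceeded those over other effector cells by 0.18, within 0.01, at 1326 of 1759 Treg positions (75.4%) and 2917 of 4835 naive positions (60.3%). The implied difference between the lower populations was therefore the same number, within 0.01, across the positions of each such set. Whether the lower libraries held any reads there is not given in the files. Of the 3541 rows higher in Th2 than in Treg cells, all 3541 were also listed over other effector cells at the same position, as were all 1759 rows higher in Treg than in Th2 cells. These comparisons share samples, and their values are set side by side below as descriptions.

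**Figure D3:**
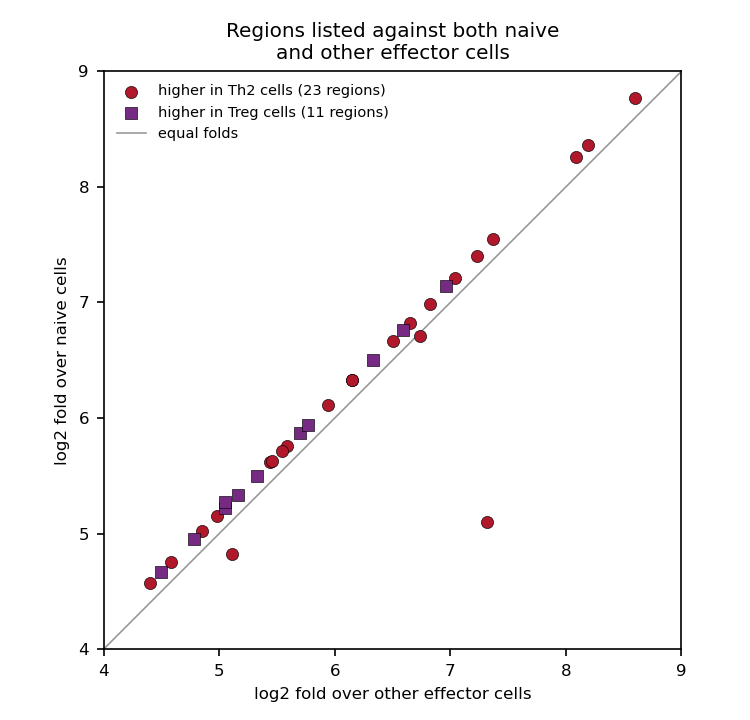
Fold over naive cells (vertical axis, log2) against fold over other effector cells (horizontal axis, log2) for regions of the 34 genes listed against both, with Th2 regions as red circles and Treg regions as purple squares. Most points run parallel to the line of equal folds at 0.17 above it, and the Rptor region at 5.10 over naive and 7.32 over other effector cells lies farthest from it.

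Start sites of these genes were listed mainly as lower in other effector cells. Of the 29 genes with start sequences, 27 (93.1%) had a start window overlapped by a listed region, against 49.0% of the 17491 protein-coding genes with a start window. Among other genes of the same pathways, the share was 14 of 28 further glycolysis genes (50.0%), 17 of 19 partner genes of HIF and MYC (89.5%), 36 of 43 further mTOR pathway genes (83.7%) and 8 of 12 further amino acid transporters (66.7%). The exceptions were Pfkl and Tpi1. Th2 cells were higher than other effector cells over the start of 23 genes (79.3%, against 38.7% of all genes with a start window), Treg cells over that of 21 (72.4%, against 34.6%) and naive cells over that of 3 (10.3%, against 5.64%). Among Th2, Treg and naive cells, Ldhb alone of these 29 genes had a start window listed. It was lower in Th2 than in naive cells (1 of 29 genes or 3.45%, against 0.617%) and lower in Treg than in naive cells (3.45%, against 0.509%). None of the 29 was listed as higher in Th2 or in Treg than in naive cells, against 2.13% and 0.920% of all genes, or between Treg and Th2 cells, against 0.543% toward Treg and 1.59% toward Th2 cells. Slc2a3, Myc, Slc7a5, Slc1a5 and Eif4ebp1 had no start sequence and are not counted here. A region over a gene end was higher in Th2 than in naive cells at Eif4ebp1 (8.77) and lower at Slc2a3 (7.26). At Myc, Slc7a5 and Slc1a5 such regions were listed over other effector cells alone.

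**Figure D4:**
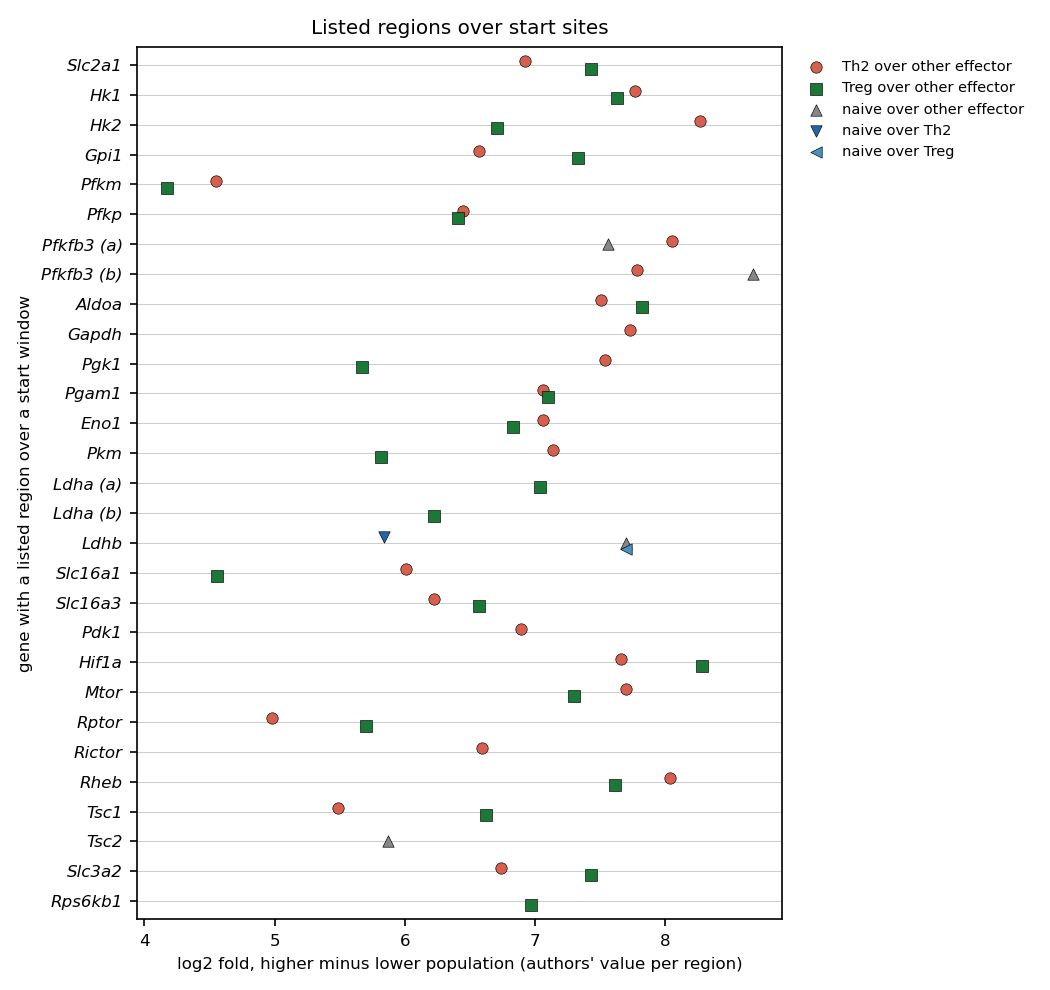
Deposited log2 fold (horizontal axis, higher minus lower population) of each listed region over a start window of 27 genes (rows), with 1 marker for each direction. Pfkfb3 (a) is the inner and (b) the outer start, and Ldha (a) the outer and (b) the inner start. Circles and squares fill most rows, and Ldhb carries the blue triangles at 5.84 over Th2 and 7.70 over Treg cells.

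The 2 glucose transporter genes had 17 regions. Th2 cells were higher than naive cells at 2 (11.8%, against 9.67% of all regions) and lower at 1 (5.88%, against 9.21%). No region was listed between Treg and naive or between Treg and Th2 cells. Over other effector cells, Th2 cells were higher at 10 (58.8%, against 53.2%), Treg cells at 9 (52.9%, against 46.7%) and naive cells at 8 (47.1%, against 33.7%). Slc2a1, which encodes GLUT1, the main glucose transporter of activated T cells, had 6 regions. Its start, chr4:119108432-119109714, had folds of 6.92 in Th2 and 7.43 in Treg cells over other effector cells. Inside the gene, 17222 bp from the start, chr4:119125568-119126367 was higher in Th2 cells than in naive (8.36) and than in other effector cells (8.19). This region carried the only difference of Slc2a1 among Th2, Treg and naive cells. Before the start, chr4:119105708-119106173 had folds over other effector cells of 4.54 in Th2, 6.85 in Treg and 7.73 in naive cells. Inside the gene, chr4:119116384-119116601 had 4.69, 5.51 and 3.94 in the same order. A region at chr4:119127044-119127756 had folds of 6.77 in Th2 and 6.89 in Treg cells over other effector cells, and one past the gene, chr4:119142285-119142434, was listed for Th2 cells at 4.73.

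Slc2a3 encodes GLUT3, a high-affinity glucose transporter, and had 11 regions, 6 of them higher in naive cells than in other effector cells. In a region higher in Th2 cells, chr6:122758596-122759096, folds were 6.11 over naive and 5.94 over other effector cells. At the higher-coordinate end of the gene, chr6:122801021-122802425 was lower in Th2 than in naive cells, by 7.26, and lower in other effector than in naive cells, by 7.07. Within 1 gene, then, 1 region was higher and 1 lower in Th2 than in naive cells. Outside the gene, chr6:122810389-122811612 had the largest Treg fold over other effector cells among the 34 genes, 8.37, and chr6:122804458-122804801 was listed for Th2 (4.0) and Treg cells (4.54). Over other effector cells, chr6:122741017-122741619 had folds of 4.25 in Th2, 5.25 in Treg and 5.01 in naive cells, and chr6:122764239-122765553 had 4.47 in Th2 and 6.03 in naive cells. Naive cells alone were listed at chr6:122743124-122743280 (4.13), chr6:122743421-122743599 (4.65) and chr6:122763422-122764010 (5.86). Treg cells alone were listed at chr6:122741915-122743080 (6.46) and chr6:122786371-122786604 (4.33).

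Among glycolytic genes the regions that set Th2 cells apart gathered at Hk2 and Pfkfb3. The 14 genes had 61 regions. At 10 of them Th2 cells were higher than naive cells (16.4%, against 9.67% of all regions), 4 each at Hk2 and Pfkfb3 and 1 each at Hk1 and Pfkp. At 1, in Pfkfb3, they were lower (1.64%, against 9.21%). Treg cells were higher than naive cells at 4 (6.56%, against 6.64%), 1 each at Hk1, Hk2, Pfkfb3 and Pkm, and lower at none (5.76% of all regions). Treg cells were higher than Th2 cells at 3 (4.92%, against 3.34%), 1 each at Hk1, Pfkp and Tpi1. They were lower than Th2 cells at 8 (13.1%, against 6.72%), of which Hk2 had 4, Pfkfb3 3 and Pfkp 1. Hk2 and Pfkfb3 together held 8 of those 10 and 7 of those 8 regions, and regions of 1 gene are no replicates.

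Hk2 encodes hexokinase 2, the inducible enzyme that traps glucose in the cell by phosphorylation. All of its 10 regions were higher in Th2 cells than in other effector cells, and none was higher in naive cells than in any other population. Inside the gene, chr6:82752821-82753904, at 21092 bp from the start, was higher in Th2 cells than in Treg (6.71), naive (7.55) and other effector cells (7.37). The same held for chr6:82764197-82764473, at 10119 bp, with 5.46 over Treg, 7.21 over naive and 7.04 over other effector cells. At both regions the fold over Treg cells was the smallest of the 3. Whether they are exonic or intronic is not given here, since the annotation used lists no exons. At chr6:82751023-82751214 Th2 cells were higher than Treg (5.61) and other effector cells (5.60), and at chr6:82824509-82824698, 50149 bp before the start, than Treg (5.14) and other effector cells (5.50). At chr6:82744419-82744938 Th2 and Treg cells were both higher than naive cells, by 5.63 and 5.33, and than other effector cells, by 5.46 and 5.16. Upstream, chr6:82821688-82822301 was higher in Th2 than in naive (4.75) and other effector cells (4.58), and chr6:82824051-82824245 was higher than in other effector cells (4.93). The Hk2 start, chr6:82774184-82774970, whose sequence is printed above, had folds of 8.27 in Th2 and 6.71 in Treg cells over other effector cells. Its neighbour chr6:82773224-82773974 had 7.42 and 5.99 for the same populations, and chr6:82740227-82740665 had 4.98 and 6.39, the only Hk2 region with a larger fold in Treg than in Th2 cells.

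Pfkfb3 encodes an enzyme that makes fructose 2,6-bisphosphate, the strongest activator of phosphofructokinase, and had 14 regions. Th2 cells were higher than naive cells at 4 of them. Inside the gene, chr2:11530088-11530500 had the largest fold of Th2 over Treg cells among the 34 genes, 6.82, with 6.99 over naive and 6.82 over other effector cells. Past the end of the gene, chr2:11429624-11429992, at 72282 bp from the nearest start, was higher in Th2 than in naive cells by 8.26 and than in other effector cells by 8.09, where Treg cells had 4.46. Also past the end, chr2:11441650-11442200 was higher in Th2 than in naive (6.48) and other effector cells (6.87). At chr2:11523960-11524122 the same pair of folds was 4.82 and 5.11. The regions chr2:11496653-11496887 and chr2:11513093-11513326 were higher in Th2 than in Treg cells, by 6.37 and 6.29, and than in other effector cells, by 6.37 and 6.28. Th2 cells thus stood above Treg cells at 3 regions, all inside the gene. Farthest from the gene, chr2:11415978-11416909 was higher in Treg than in naive cells (5.27), and over other effector cells had 4.04 in Th2 and 5.05 in Treg cells.

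Naive cells were the higher population at some Pfkfb3 regions. At chr2:11541937-11542499 Th2 cells were lower than naive cells by 6.92, and other effector cells were lower by 6.73. The outer start, within chr2:11552338-11554196, had folds of 7.78 in Th2 and 8.67 in naive cells over other effector cells, and 2 Treg rows of 5.46 and 4.85 lay in the same region outside the start window. The inner start, chr2:11501168-11502620, had 8.05 in Th2 and 7.56 in naive cells. It was not listed for Treg cells, although its neighbour chr2:11502881-11503565 was, at 5.06, with 4.52 in Th2 and 7.65 in naive cells. The last 3 regions were listed over other effector cells alone, chr2:11535374-11535987 in Th2 (7.12) and Treg cells (6.21), chr2:11542688-11542973 in Th2 (4.67) and Treg cells (4.69), and chr2:11534723-11535236 in naive cells (5.38).

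**Figure D5:**
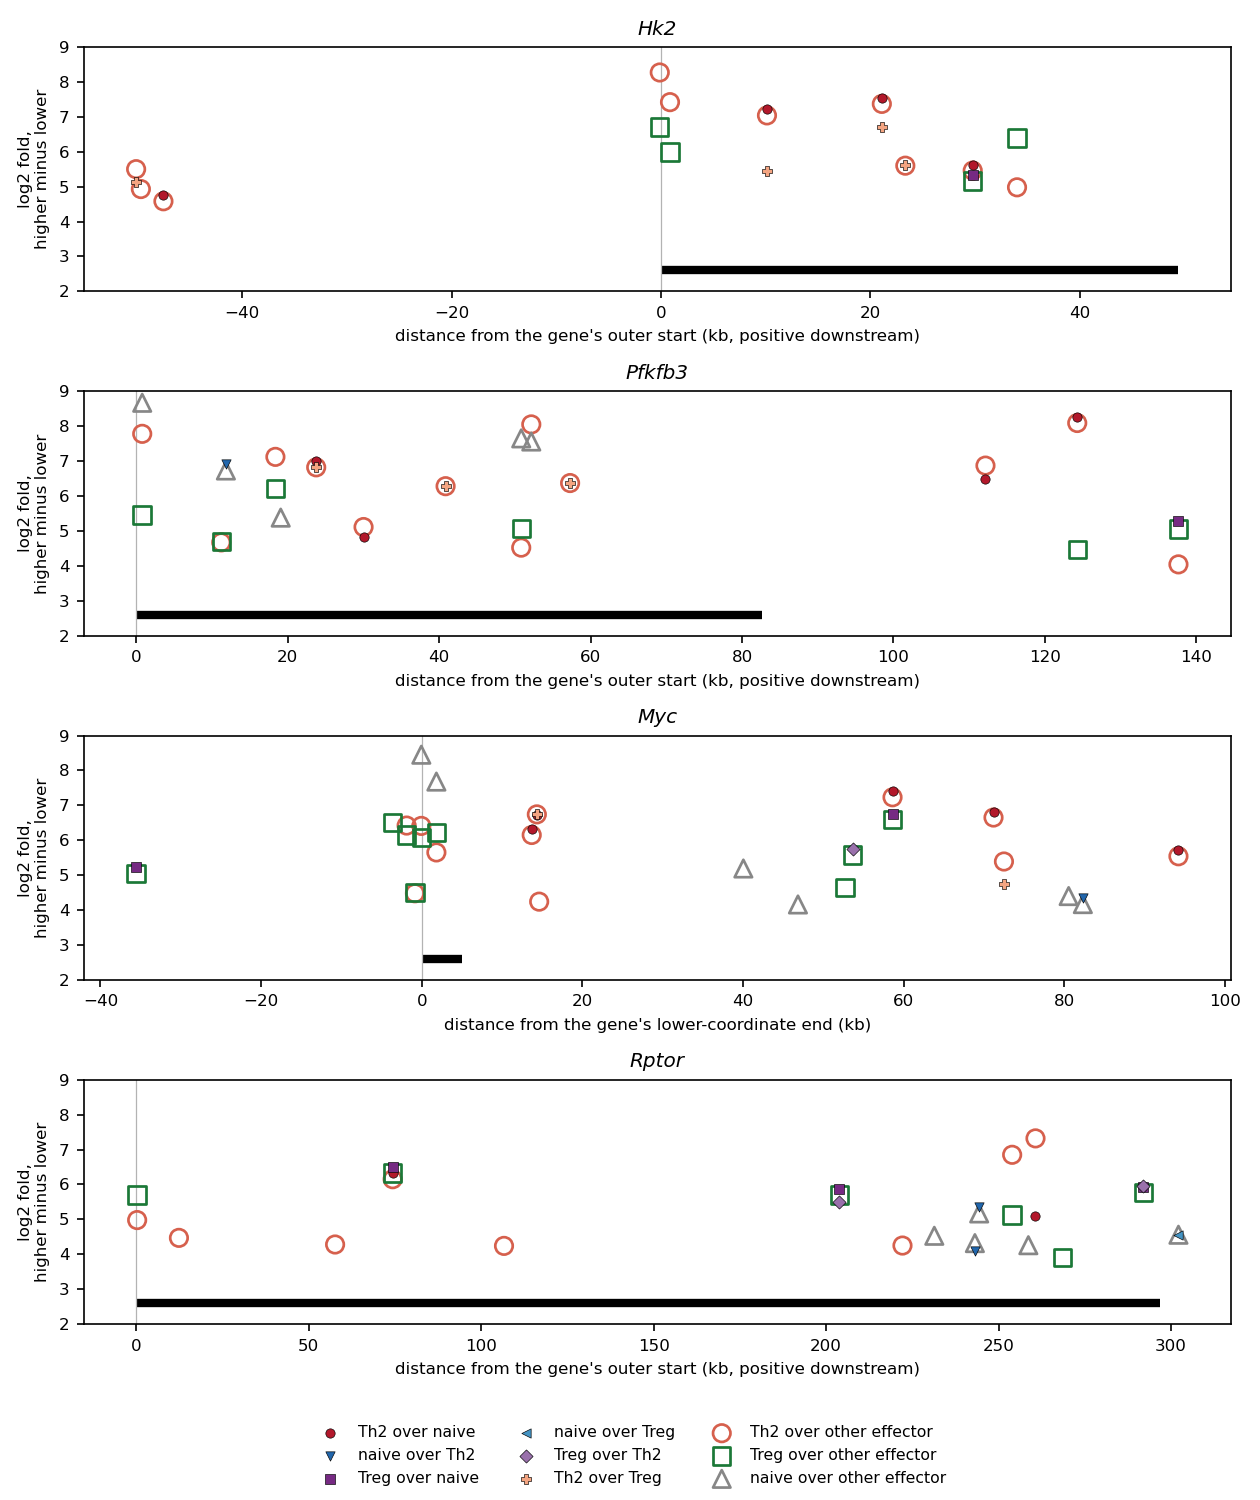
Listed regions of Hk2, Pfkfb3, Myc and Rptor by distance (horizontal axis, kb) and deposited log2 fold (vertical axis, higher minus lower population). Small filled markers are comparisons among Th2, Treg and naive cells, large open markers are comparisons over other effector cells, and the black bar is the gene. A region with 2 rows in a direction is drawn at the larger fold. At Hk2, red circles and orange crosses, both higher in Th2 cells, lie within the gene and about 50 kb before it, and at Myc most markers lie outside the gene.

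Hk1, the hexokinase of most resting tissues, had 7 regions. A region at chr10:62313152-62313510 was higher in Th2 than in naive (5.76) and other effector cells (5.59), and another at chr10:62277335-62278197 was higher in Treg than in naive (5.23) and other effector cells (6.99). Next to the start, chr10:62339162-62339690 was higher in Treg than in Th2 (6.23) and other effector cells (6.04), whereas the start itself, chr10:62339880-62340743, had folds of 7.77 in Th2 and 7.63 in Treg cells over other effector cells. The remaining 3 regions were listed against other effector cells, chr10:62300455-62300794 (4.36) and chr10:62327363-62327995 (4.79) for Th2 cells, and chr10:62329016-62329375 for Treg (4.27) and naive cells (3.99).

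Pfkp, the platelet-type phosphofructokinase gene, had 10 regions in mixed directions. Treg cells were higher than Th2 cells at chr13:6633373-6634330, by 5.33, and lower at its neighbour chr13:6632508-6632941, by 4.71. Set against other effector cells, chr13:6633373-6634330 had 6.81 in Treg cells, and chr13:6632508-6632941 had 4.70 in Th2 and 5.27 in naive cells. At chr13:6618497-6618975 Th2 cells were higher than naive (4.57) and other effector cells (4.40). The start, chr13:6648491-6649284, had folds of 6.45 in Th2 and 6.41 in Treg cells over other effector cells. The other 6 regions were lower in other effector cells than in 1 population each. They were chr13:6624697-6624900 for Th2 cells (4.91), chr13:6599481-6599769 (4.13), chr13:6642476-6642625 (4.52) and chr13:6690032-6690440 (4.04) for Treg cells, and chr13:6626557-6627129 (5.01) and chr13:6627379-6627771 (5.06) for naive cells. Pfkm, the muscle-type gene, had 2 regions, the start at chr15:98108150-98108920 with 4.55 in Th2 and 4.17 in Treg cells, and chr15:98093019-98093888, which also lies by Senp1, with 6.0 in Treg cells.

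The enzymes from aldolase to pyruvate kinase were listed almost only over other effector cells. The exceptions were Tpi1 and Pkm. Triosephosphate isomerase, encoded by Tpi1, had 1 region, chr6:124813514-124813741, 531 bp inside the start, higher in Treg than in Th2 (5.72) and other effector cells (5.54). Pkm, which encodes the pyruvate kinase of the last step, had chr9:59659430-59660054, 2515 bp from the nearest start, higher in Treg than in naive cells by 7.14, the largest Treg fold over naive cells among the 34 genes, and than in other effector cells by 6.96. Set against other effector cells, its start, chr9:59655896-59657240, had 7.14 in Th2 and 5.82 in Treg cells, chr9:59658163-59658438 had 5.50 in naive cells, and chr9:59680004-59680382, which also lies by Gramd2, had 4.27 in Th2 cells.

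Eno1, the enolase gene, had 6 regions, all of them against other effector cells. Its start, chr4:150236567-150237523, had 7.06 in Th2 and 6.83 in Treg cells. Its next region, chr4:150237690-150238023, had 5.0 in Th2 cells, chr4:150248108-150248378 had 4.45 in Treg cells and chr4:150242794-150243092 had 5.70 in naive cells. At chr4:150239570-150239845 the folds were 5.75 in Treg and 6.29 in naive cells, and at chr4:150257140-150257523 they were 4.44 in Th2, 4.61 in Treg and 4.88 in naive cells. The start of Gpi1, the glucose-6-phosphate isomerase gene, had 6.57 in Th2 and 7.33 in Treg cells, and that of Aldoa, the aldolase A gene, 7.51 and 7.82. The start of Pgam1, the phosphoglycerate mutase gene, had 7.06 in Th2 and 7.10 in Treg cells, and that of Pgk1, the phosphoglycerate kinase gene, 7.54 and 5.67. All 4 were listed against other effector cells alone. The start of Gapdh, the glyceraldehyde-3-phosphate dehydrogenase gene, was listed for Th2 cells over other effector cells (7.73). Aldoa and Pgk1 had 1 further region each, at 6.14 in naive and 4.93 in Th2 cells.

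The 5 genes of pyruvate and lactate handling had 27 regions, and none of them was higher in Th2 or in Treg than in naive cells, against 9.67% and 6.64% of all regions. Th2 cells were lower than naive cells at 6 (22.2%, against 9.21%), of which Ldhb had 3, Slc16a1 2 and Pdk1 1. Treg cells were lower than naive cells at 3 (11.1%, against 5.76%), of which Slc16a1 had 2 and Ldhb 1. With so few regions from 3 genes, no departure from the background is called. Ldhb encodes the lactate dehydrogenase subunit that favours pyruvate formation. Its start, chr6:142507322-142508357, printed above, was lower in Th2 than in naive cells by 5.84, lower in Treg than in naive cells by 7.70, and lower in other effector than in naive cells by 7.70. This was the largest fold of naive over Treg cells among the 34 genes. Upstream, chr6:142527676-142528289 was lower in Th2 than in naive cells by 4.02 and in other effector than in naive cells by 5.64. At chr6:142524749-142525361 Th2 cells were lower than naive cells (5.04) and Treg cells were higher than Th2 cells (5.22), while over other effector cells Treg cells had 5.04 and naive cells 4.85. The fourth region, chr6:142519034-142519475, had 4.31 in naive cells over other effector cells. No Ldhb region was higher in Th2 cells than in any other population.

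Ldha, whose product favours lactate formation, had 7 regions, and none was listed among Th2, Treg and naive cells. Its outer start, chr7:46845494-46846517, printed above, and its inner start, chr7:46846688-46847234, had folds of 7.04 and 6.22 in Treg over other effector cells. Neither was listed for Th2 or naive cells. Upstream, chr7:46833256-46833741 was higher than in other effector cells in all 3 populations, by 6.79 in Th2, 6.90 in Treg and 7.01 in naive cells. Th2 cells had chr7:46838209-46838557 (4.89) and chr7:46838737-46839310 (6.15), and naive cells chr7:46833931-46834128 (4.87) and chr7:46854997-46855572 (4.36). The outer Ldha window holds HIF and E-box letters, while the inner Ldha window, also listed in Treg cells, holds neither, and nor does the Ldhb window.

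Slc16a1 encodes MCT1 and Slc16a3 MCT4, monocarboxylate transporters that carry lactate across the membrane. Upstream of Slc16a1, chr3:104630731-104631609 was lower in Th2 than in naive cells by 5.91, in Treg cells by 7.40 and in other effector cells by 7.40. Downstream, chr3:104707684-104708588 was lower than in naive cells by 4.67 in Th2, 5.46 in Treg and 6.57 in other effector cells. At both regions, as at the Ldhb start, the difference from naive cells was smallest in Th2 cells. The Slc16a1 start, chr3:104637711-104639482, had 6.01 in Th2 and 4.56 in Treg cells over other effector cells, chr3:104643864-104644304 had 6.15 in Treg cells, and chr3:104682872-104683331 had 4.51 in Treg and 3.82 in naive cells. Naive cells alone were listed at chr3:104616059-104616626 (6.81) and chr3:104670746-104671174 (4.78). Slc16a3 had 5 regions, all over other effector cells and none higher in naive cells. Its start, chr11:120948842-120949196, had 6.22 in Th2 and 6.57 in Treg cells, chr11:120948364-120948555 had 5.69 and 4.09, and chr11:120950629-120951247 had 4.19 and 5.89. Treg cells alone were listed at chr11:120941024-120941257 (4.42) and chr11:120959633-120959878 (4.33), the last of which also lies by Csnk1d.

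Pdk1, which encodes a kinase that shuts pyruvate out of the mitochondrial route, had 4 regions. Past the gene, chr2:71941093-71941993, 66639 bp from the nearest start, had the largest fold between Th2 and naive cells among the 34 genes in the direction of naive cells. Th2 cells were lower there than naive cells by 8.93, Treg cells were higher than Th2 cells by 8.11, and other effector cells were lower than Treg cells by 7.93 and than naive cells by 8.75. Treg and naive cells were thus both above Th2 and other effector cells here. The start, chr2:71872857-71874017, was listed only for Th2 over other effector cells, with a fold of 6.89. Upstream, chr2:71866437-71867228 had 5.91 in Treg and 7.68 in naive cells over other effector cells, and chr2:71898112-71898706 had 4.47 in naive cells.

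Hif1a encodes the oxygen-regulated subunit of HIF-1, which drives glycolytic genes. It had 8 regions, of which 2 were higher in Th2 and 3 in Treg than in naive cells. Together, Hif1a and Myc had 27 regions. Th2 cells were higher than naive cells at 7 (25.9%, against 9.67% of all regions) and lower at 2 (7.41%, against 9.21%). Treg cells were higher than naive cells at 5 (18.5%, against 6.64%) and lower at 0 (5.76% of all regions). Treg cells were higher than Th2 cells at 1 (3.70%, against 3.34%) and lower at 2 (7.41%, against 6.72%). Regions of 1 gene are no replicates. Before the start printed above, chr12:73876409-73876877 was higher than in naive cells by 5.15 in Th2 and 5.50 in Treg cells, and chr12:73904220-73904808 by 5.62 and 4.95. Over other effector cells the same regions had 4.98 in Th2 and 5.33 in Treg cells, and 5.44 and 4.78. Th2 and Treg cells were thus both higher than naive and other effector cells at the same pair of regions. A further one, chr12:73899086-73899420, was listed for Treg cells over naive (4.67) and other effector cells (4.50). The start itself, chr12:73907441-73908623, had folds of 7.66 in Th2 and 8.28 in Treg cells over other effector cells. Past the gene, chr12:73952771-73954135 was lower in Th2 than in naive cells by 6.29, and over other effector cells had 2 Treg rows of 5.13 and 4.83 and a naive row of 6.50. Th2 cells alone were listed over other effector cells at chr12:73850747-73851259 (5.16), chr12:73881506-73881811 (4.42) and chr12:73901284-73901456 (5.20).

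Myc, the transcription factor gene that governs growth on T cell activation, had 19 regions, the most of the 34 genes, and 16 lay outside the gene. Those are given to Myc because no other protein-coding gene is nearer, which does not show that they act on it. Th2 cells were higher than naive cells at 5, all past the higher-coordinate end. These were chr15:61998838-61999219 (6.33), chr15:61999457-61999876 (6.71), chr15:62043590-62044288 (7.40), chr15:62056204-62056810 (6.82) and chr15:62079355-62079697 (5.71). The Th2 folds over other effector cells at these regions were 6.15, 6.74, 7.23, 6.65 and 5.54. Th2 cells were higher than Treg cells at chr15:61999457-61999876, by 6.74, and at chr15:62057687-62057926, by 4.74, where the fold over other effector cells was 5.39. At 1 of the 5, chr15:62043590-62044288, Treg cells were also higher than naive (6.76) and other effector cells (6.59).

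Treg cells were the higher population at other Myc regions. On the lower-coordinate side, chr15:61949614-61949966 was higher in Treg than in naive (5.22) and other effector cells (5.05), and chr15:62038281-62039656 was higher in Treg than in Th2 (5.76) and other effector cells (5.58). At chr15:62067455-62067799 Th2 cells were lower than naive cells, by 4.35, and other effector cells lower by 4.17. Around the gene itself other effector cells were the lower population. The region over its lower-coordinate end, chr15:61984684-61985892, had folds of 6.41 in Th2, 6.07 in Treg and 8.45 in naive cells, and that inside it, chr15:61986678-61987649, had 5.65, 6.22 and 7.68. Neither was listed among Th2, Treg and naive cells. Next to them, chr15:61983307-61983612 had 6.42 in Th2 and 6.15 in Treg cells, chr15:61984419-61984568 had 4.48 and 4.50, and chr15:61981510-61981902 had 6.50 in Treg cells. The last 5 regions were listed in 1 population each: chr15:61999882-62000031 in Th2 (4.24), chr15:62037855-62038151 in Treg (4.64), and chr15:62025238-62025506 (5.19), chr15:62031834-62032499 (4.16) and chr15:62065660-62066058 (4.40) in naive cells.

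The 6 genes of mTOR complexes, their activator and targets had 29 regions. Th2 cells were higher than naive cells at 3 (10.3%, against 9.67% of all regions) and lower at 3 (10.3%, against 9.21%). Treg cells were higher than naive cells at 3 (10.3%, against 6.64%) and lower at 1 (3.45%, against 5.76%). Treg cells were higher than Th2 cells at 2 (6.90%, against 3.34%) and lower at 0 (6.72% of all regions). These genes differed in how many regions they had. Mtor, the kinase gene, had 2, its start at chr4:148448228-148449216, printed above, with folds of 7.70 in Th2 and 7.30 in Treg cells over other effector cells, and chr4:148558146-148558965, which also lies by Exosc10, with 5.91 and 6.20. Rptor, which encodes the Raptor subunit of mTORC1, had 16 at a gene of 296687 bp. Treg cells were higher than Th2 cells at a pair of them. At chr11:119806594-119806873 the Treg folds were 5.49 over Th2, 5.87 over naive and 5.70 over other effector cells, and at chr11:119894639-119895199 they were 5.95, 5.94 and 5.77. These were the 2 regions of the 34 genes that were higher in Treg cells than in each of the other 3 populations, 1.15% of the member regions, against 1.21% of all regions. At chr11:119676629-119677927 Th2 and Treg cells were both higher than naive cells, by 6.33 and 6.50, and than other effector cells, by 6.15 and 6.33. A region at chr11:119863377-119863859 was higher in Th2 than in naive (5.10) and other effector cells (7.32).

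Naive cells were the higher population at other Rptor regions. Th2 cells were lower than naive cells at chr11:119845742-119846354, by 4.09, and chr11:119847076-119847511, by 5.35, and other effector cells were lower by 4.32 and 5.17. Treg cells were lower than naive cells past the gene, at chr11:119904858-119905258, by 4.56, with 4.56 also from other effector cells. The Rptor start, chr11:119602802-119603602, had 4.98 in Th2 and 5.70 in Treg cells over other effector cells, and chr11:119856618-119857087 had 6.85 and 5.12. Th2 cells alone were listed at chr11:119615240-119615389 (4.47), chr11:119660510-119660659 (4.28), chr11:119709422-119709674 (4.24) and chr11:119824943-119825175 (4.25). Treg cells alone were listed at chr11:119871297-119871455 (3.90), and naive cells alone at chr11:119833978-119834592 (4.53) and chr11:119861343-119861753 (4.26).

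Rictor, which encodes the defining subunit of mTORC2, had 3 regions. Th2 cells were lower than naive cells at chr15:6726320-6726890, by 5.11, and over other effector cells that region had 4.40 in Treg and 6.33 in naive cells. The start, chr15:6707515-6709302, had 6.59 in Th2 cells, and chr15:6733136-6733482 had 4.53 in naive cells, both over other effector cells. Rheb, the GTPase that switches mTORC1 on, had 6 regions, all over other effector cells. Its start, chr5:24841937-24843218, had 8.04 in Th2 and 7.61 in Treg cells. Beside it, chr5:24843261-24843410 had 4.10 in Th2 cells, as had chr5:24821530-24821770 with 4.19, while Treg cells had chr5:24780259-24780443 (4.29) and chr5:24824110-24824382 (4.59), and naive cells chr5:24825768-24826725 (4.32).

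Of the mTORC1 targets, Eif4ebp1, which encodes the translation repressor 4E-BP1, had 1 region, chr8:27260027-27261512, over the lower-coordinate end of the gene. It was higher in Th2 than in naive cells by 8.77 and than in other effector cells by 8.60, the largest folds of both directions among the 34 genes. Rps6kb1, the S6 kinase 1 gene, had its start listed for Treg over other effector cells (6.97) in a region that also lies by Tubd1. The brake genes had 1 region each, both over other effector cells. At Tsc1 the start, chr2:28640559-28641512, had 5.49 in Th2 and 6.62 in Treg cells. At Tsc2 the start, chr17:24632321-24632937, which also lies by Nthl1, had 5.87 in naive cells.

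The 3 amino acid uptake genes had 11 regions. Over other effector cells, Th2 cells were higher at 7 of them (63.6%, against 53.2% of all regions) and Treg cells at 9 (81.8%, against 46.7%). Among Th2, Treg and naive cells 3 were listed (27.3%, against 31.5% of all regions). Slc7a5, which encodes LAT1, the transporter of large neutral amino acids that feeds mTORC1, had 5 regions. Inside the gene, chr8:121898170-121898883 was higher in Th2 than in naive (6.67) and other effector cells (6.50), and chr8:121895990-121896624 was lower in Th2 than in naive cells by 4.28, lower in Treg cells by 4.10 and lower in other effector cells by 4.09. These neighbouring regions had opposite directions between Th2 and naive cells. At the higher-coordinate end, chr8:121907515-121908180 had 6.34 in Th2 and 7.23 in Treg cells, chr8:121906504-121906945 had 4.67 and 5.78, and chr8:121907222-121907403 had 5.20 in Treg cells, all over other effector cells. Slc3a2, which encodes CD98, the partner chain of LAT1, had 4 regions, all over other effector cells. A start at chr19:8712794-8714038 had 6.74 in Th2 and 7.43 in Treg cells, the higher-coordinate end of the gene, chr19:8722813-8723584, had 6.83 and 7.58, and chr19:8711930-8712422 and chr19:8695125-8695700 had 4.72 and 3.97 in Treg cells. Slc1a5, the glutamine transporter gene, had chr7:16784568-16785031 higher in Th2 cells than in naive cells (5.02), with 4.85 in Th2 and 4.10 in Treg cells over other effector cells, and chr7:16781116-16781654 with 5.24 and 6.06.

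Other genes of the same pathways were counted in the same way, with the share over all protein-coding genes beside each count. Among 33 further glycolysis genes, 25 had a region (75.8%, against 67.0%). Of the 33, 2 had a region higher in Th2 than in naive cells (6.06%, against 13.7%), 2 a region lower (6.06%, against 11.8%), and 4 a region lower in Treg than in Th2 cells (12.1%, against 10.4%). Regions higher in Treg than in naive, lower than in naive and higher than in Th2 cells lay at 0 genes, against 9.70%, 8.45% and 5.71%. Pfkfb4, a sister gene of Pfkfb3, had 5 regions, 3 of them higher in Th2 than in Treg cells (6.72% of all regions), and Bpgm and Eno3 had 4 each. All 20 partner genes of HIF and MYC had a region. In Th2 against naive cells 4 of them had a region higher (20%, against 13.7%) and 3 a region lower (15.0%, against 11.8%). In Treg against naive cells 5 had a region higher (25%, against 9.70%) and 2 a region lower (10%, against 8.45%). A region higher in Treg than in Th2 cells lay at 4 (20%, against 5.71%). The reverse direction was listed at 4 (20%, against 10.4%). Max, Mxi1 and Egln3 had 12, 11 and 9 regions. Among 50 further mTOR pathway genes, 47 had a region (94.0%). Of the 50, 10 had a region higher in Th2 than in naive cells (20%, against 13.7%) and 6 a region lower (12.0%, against 11.8%). In Treg against naive cells 5 had a region higher (10%, against 9.70%) and 6 a region lower (12.0%, against 8.45%). A region higher in Treg than in Th2 cells lay at 3 (6%, against 5.71%). The reverse direction was listed at 11 (22%, against 10.4%). Prr5l, which encodes a protein that binds mTORC2, had 12 regions, all higher in Th2 cells than in other effector cells, 6 higher than in naive and 6 higher than in Treg cells. Prkag2, an AMPK subunit gene, had 12, and Tfeb, a lysosomal transcription factor gene, 11. Among 13 further amino acid transporter genes, 12 had a region (92.3%), 7 a region higher in Th2 than in naive cells (53.8%, against 13.7%) and 3 a region lower (23.1%, against 11.8%). In Treg against naive cells 6 had a region higher (46.2%, against 9.70%) and 3 a region lower (23.1%, against 8.45%). Between Treg and Th2 cells, 2 had a region higher in Treg (15.4%, against 5.71%) and 4 a region higher in Th2 cells (30.8%, against 10.4%). Slc43a2, Slc38a2 and Slc38a1 had 17, 14 and 11 regions.

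Set side by side, the regions of the 34 genes fell mostly into patterns that concern other effector cells alone. Of the 174, 118 (67.8%) were listed against other effector cells and in no other comparison, against 68.5% of all regions. The commonest pattern, higher in both Th2 and Treg than in other effector cells and listed nowhere else, held 35 regions (20.1%, against 15.9% of all). Higher in Th2 than in both naive and other effector cells and listed nowhere else were 13 (7.47%, against 3.98%), spread over 10 genes. Higher in Th2 than in each of the other 3 populations were 4 (2.30%, against 2.39% of all), at Hk2, Pfkfb3 and Myc. Lower than in naive cells in all 3 other populations were 4 (2.30%, against 2.70% of all), at Ldhb, Slc16a1 and Slc7a5. Both shares lay just below the background. Of the regions higher in Th2 cells than in other effector cells, 52 were also higher in Treg cells, 52.0% of the Th2 list and 56.5% of the Treg list, against 42.8% and 48.7% over all regions, and both lists share the other effector libraries.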

How the data were processed

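ATAC-seq was done on 4 sorted mouse T helper populations, and 1 table was deposited for each of the 6 pairs. The log2 folds in the tables are the authors' own, made with DiffBind per the submitters' processing notes (no version named), and were deposited with a position per region but with no count, p-value or value per replicate. No source used here gives the calling threshold or the read filters. The notes name build mm9, but 21.3% of rows lay within 1 kb of a gene end on GRCm38, against 4.24% to 6.14% after shifts of 10 to 1000 kb, so GRCm38 was used. Folds were read as the population named first in a table minus the other, a sign checked on lineage genes.

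With Python 3.11.15 and pandas 2.3.3, rows that overlapped by at least 1 bp were joined into 52537 regions and given to genes of RefSeq GRCm38.p6 by the midpoint rule. A start window runs from 250 bases before to 50 after an annotated start. The joining and gene assignment were tested on simulated rows. With no replicate values no test was possible: counts are set beside the same counts over all regions or genes, and depth is unknown. Genes with at least 3 regions (20 of 34) are given region by region, with the region of largest fold in each direction, and in each further list the 3 genes with most regions are named. The members and lists were chosen with earlier results of these data known. Alternatives were the gene rule, a fold floor, the joining rule and the denominator.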

Additional observations from a re-analysis of the deposited data

How the results depend on the processing

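No fold has a replicate error, and a region missing from a table may be equal or just short of the authors' threshold. Counts moved most with rules that keep fewer rows. The fold floor removes the rows below the median of each table whatever the genes, so a drop under it was built in. Shares of all regions kept under these rules are not given here. With regions inside a gene or within 1 kb only, 15 of 24 regions stayed for Th2 over naive and 7 of 14 for naive over Th2 cells, 7 of 12 for Treg over naive and 2 of 5 for naive over Treg cells, 5 of 8 for Treg over Th2 cells, and 34 of 54 for naive over other effector cells. With a limit of 10 kb, 5 of 8 stayed for Treg over Th2 and 9 of 14 for naive over Th2 cells. With folds at or above the median of their table, 5 of 12 stayed for Treg over naive and 2 of 5 for naive over Treg, 6 of 14 for naive over Th2, 5 of 8 for Treg over Th2 and 6 of 10 for Th2 over Treg, and 58 of 100 for Th2, 55 of 92 for Treg and 25 of 54 for naive over other effector cells. Gene counts moved too: for Treg over Th2 cells 4 of 7 genes stayed with regions in or near genes only and with the 10 kb limit, for naive over Th2 cells 6 of 10 with regions in or near genes only and with the fold floor, for naive over Treg cells 2 of 4 with the same pair of rules, and for Treg over naive cells 3 of 7 with the fold floor. Joining at 50% reciprocal overlap kept all 9 counts within 1.5 times. Without the other effector tables, shares were 21.4% against 21.1% of all regions for Treg over naive, 8.93% against 18.3% for naive over Treg, 14.3% against 10.6% for Treg over Th2 and 17.9% against 21.3% for Th2 over Treg cells. No paired analysis was possible because the tables hold no values of single replicates.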
